A study of Mus musculus with 8 samples.

Results

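High-fat diet (HFD) changed the hepatic expression of 1025 of the 9839 genes that could be tested, over mice with and without a hepatocyte deletion in *Rora*. The comparison set 4 HFD libraries against 4 control diet (CD) libraries of mouse liver, with the genotype as a covariate. The 9839 genes were those above 1 FPKM (fragments counted per length of transcript and per size of library) in all 8 libraries, of 38283 genes in the deposited table. A gene was called where its adjusted p was under 0.05 (limma with Benjamini-Hochberg adjustment over the 9839 genes) and where all 4 HFD libraries lay on one side of all 4 CD libraries.

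The mice were males on a C57BL/6 background with loxP sites around exons 4 and 5 of *Rora*, which encodes the nuclear receptor RORα. RORα f/f mice (labelled WT) carried the floxed alleles without Cre, and RORα LKO mice (labelled KO) also carried Cre under the albumin promoter, which is active in hepatocytes. Both genotypes were fed CD, or HFD with 60% of its energy from fat, for 10 weeks from 8 weeks of age. Each of the 4 groups had 2 poly(A) RNA-seq libraries, made of the livers of 2 mice each, so that 4 mice stood behind a group and the p-values measured the spread between pools. The hour of collection and the feeding state of these mice are not given in the sources used here.

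The liver takes up dietary fat and carbohydrate, makes fatty acids and cholesterol from acetyl-CoA, oxidizes fatty acids in mitochondria and peroxisomes, and releases glucose and ketone bodies between meals. Fatty acid and cholesterol synthesis are driven by the SREBP transcription factors, fatty acid oxidation by the fatty acid receptor PPARα, and glucose release by FOXO1 and cyclic AMP signalling, which insulin opposes. A diet rich in fat supplies ready-made fatty acids, and in mice it brings obesity, fatty liver and insulin resistance over weeks.

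On HFD 541 genes were higher, 5.5% of those tested, and 484 were lower, 4.92%. All 4 HFD libraries lay above all 4 CD libraries for 9.36% of the genes tested and below them for 8.45%, whatever the adjusted p. Without normalization between libraries the calls split into 331 higher and 650 lower. The genes called lower moved further: the median size of the log2 fold change was 0.44 among them and 0.36 among the genes called higher, and 66 lower genes against 12 higher genes changed by at least 1 on the log2 scale. In bulk liver, fewer cells of a type and less RNA per cell cannot be told apart. Of the 8 libraries left out in turn, HFD RORα LKO replicate 2 moved both counts most, to 307 higher and 316 lower, and 356 genes were called higher without HFD RORα LKO replicate 1. At the edge of the threshold, ENSMUSG00000085214, an identifier without a symbol in the annotation used, was called at an adjusted p of 0.050 with a log2 fold change of 0.27, and *Nfu1* was not called at 0.0503 and 0.16.

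Since a called gene had to separate all libraries of both diets, its direction was the same in both genotypes by construction. Fitted within a genotype, the diet changed 323 genes at an adjusted p under 0.05 in RORα f/f mice (3.28% of those tested) and 570 in RORα LKO mice (5.79%), and 178 of the 179 genes on both lists had the same direction. The exception was *Angptl8*, whose product takes part in the inhibition of lipoprotein lipase. Its FPKM was 13.0 and 9.56 in the CD RORα f/f libraries and 21.0 and 22.4 on HFD, and 33.1 and 30.3 in the CD RORα LKO libraries and 17.5 and 17.9 on HFD. It rose by 0.93 in one genotype and fell by 0.78 in the other on the log2 scale. The test of the difference between the genotypes passed the adjusted threshold for no gene (0%), *Angptl8* included (adjusted p 0.15), although 874 genes had an unadjusted p under 0.05. Of the 1025 called genes 106 were of this kind, beside the 874 of all 9839 genes tested. The lowest p among the called genes was that of *Egfr* (adjusted 0.18).

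**Figure D1:**
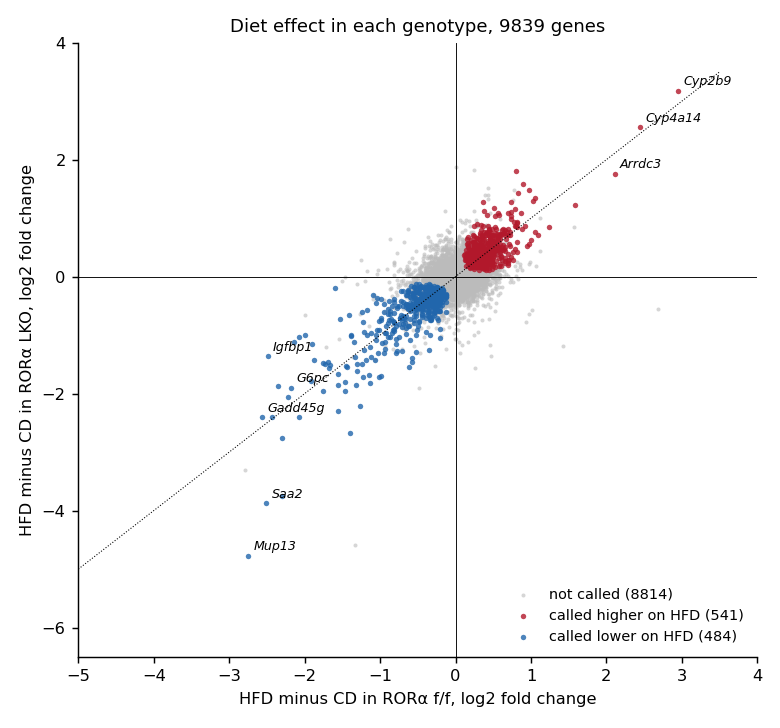
Log2 fold change of HFD over CD in RORα f/f mice (x axis) against that in RORα LKO mice (y axis) for 9839 genes. Red points are the 541 genes called higher, blue points the 484 called lower, grey points the rest, and the dotted line marks equal change. Called genes lie in the lower left or upper right quadrant, as the call requires, and the distance from the dotted line shows how far the genotypes differed.

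Because the libraries of the genotypes came from different mice, genes chosen in one genotype could be read in the other. Of the 200 genes with the smallest diet p in the RORα f/f libraries alone, 192 (96%) moved the same way in RORα LKO mice, and in 173 of them both HFD LKO libraries lay beyond both CD LKO libraries. Of the 200 chosen in the RORα LKO libraries, 184 (92%) moved the same way in RORα f/f mice. Over all genes tested the directions matched for 6440 (65.5%). The genes chosen in RORα f/f had a median absolute log2 change of 0.79 there. In RORα LKO their median was 0.66, counted as positive where the direction matched and negative where it did not. For the genes chosen in RORα LKO these values were 0.85 there and 0.51 in RORα f/f. The first value of each pair comes from the libraries used for the choice. On a principal component analysis of all 9839 genes the first component (42.9% of the variance) put the CD libraries between −15.1 and −11 and the HFD libraries between 11.1 and 15.4.

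The libraries were alike in the number of genes above 1 FPKM (10587 to 10706). Transcripts of the mitochondrial genome that code for protein made up 24.9 to 31.4% of the summed FPKM on CD and 32.8 to 38.2% on HFD (exact two-sided permutation test, p = 0.0286, the smallest that 4 against 4 libraries allow). *Alb* was listed at 0 in CD RORα LKO replicate 1, HFD RORα f/f replicate 2 and both HFD RORα LKO libraries and at 29900 to 30900 FPKM in the others. It was not tested, and it is missing from the summed FPKM of the libraries that list it at 0. *Rora* itself was at 7.56 to 8.85 FPKM in the libraries labelled RORα f/f and 7.3 to 8.18 in those labelled RORα LKO. These ranges overlap, and since the gene's FPKM also counts exons that Cre leaves in place, it checks the labels only weakly.

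The 4 values of a gene on each diet are given in the order RORα f/f replicates 1 and 2, then RORα LKO replicates 1 and 2, in FPKM as deposited. Fold changes are HFD over CD on the log2(FPKM + 1) scale after quantile normalization, with their standard errors (SE), and understate the change of genes near 1 FPKM. Counts of called genes in a list stand beside shares over all genes tested of 5.5% called higher and 4.92% called lower. Gene coordinates are of mouse build GRCm38.

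Among genes that rose, a cytochrome P450, *Cyp2b9*, a drug and steroid hydroxylase of female mouse liver, changed furthest (chr7:26173411-26210661). It was at 2.75, 6.62, 6.74 and 4.02 FPKM on CD and at 28.6, 55.1, 40.4 and 69.9 on HFD. The lowest HFD library lay far above the highest CD library, the mean was 9.64-fold higher and the log2 fold change was 3.07 (SE 0.28, adjusted p 0.0007). Its FPKM may share reads with other *Cyp2b* genes.

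*Cyp4a14* encodes a fatty acid omega-hydroxylase and is a standard PPARα target (chr4:115486200-115496142). It was at 139, 156, 167 and 272 FPKM on CD and at 817, 685, 1079 and 1194 on HFD. Every HFD library was above every CD library in both genotypes, and the mean rose 5.14-fold, with a log2 fold change of 2.49 (SE 0.12, adjusted p 3e-05). The arrestin family member *Arrdc3* (chr13:80883384-80896042), which lowers beta-adrenergic receptor signalling, was at 29, 16.3, 31.8 and 24.5 FPKM on CD and at 98.8, 87.7, 81.3 and 110 on HFD. The groups stood well apart, at a log2 fold change of 1.94 (SE 0.18, adjusted p 0.00067).

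*Nr1d1*, which encodes the clock repressor REV-ERBα, was at 28.1, 26.5, 23.7 and 23.8 FPKM on CD and at 65.6, 48.3, 55.5 and 64 on HFD. The spread within a diet was small beside the gap between them, and *Nr1d1* rose by 1.20 (SE 0.11, adjusted p 0.00061). *Bhmt*, which remethylates homocysteine to methionine with betaine, was at 911, 1209, 605 and 656 FPKM on CD and at 1608, 1558, 1557 and 1307 on HFD. On CD the RORα f/f livers held more *Bhmt* than the RORα LKO livers, while the HFD values lay together. It rose by 1.13 (SE 0.15, adjusted p 0.0028).

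Other large rises were those of *Adgrv1* (1.30), *Tpm2* (1.24), *Cyp2a22* (1.23), *Vnn1* (1.16), *Spry4* (1.04), *Ecm1* (1.01) and *Rdh9* (0.97). *Vnn1*, the pantetheinase vanin-1 and a PPARα target, was at 20.3, 19.5, 28.9 and 38.9 FPKM on CD and at 42.5, 38.7, 69.2 and 92.9 on HFD. Within each genotype its HFD libraries were higher. In deposited FPKM, HFD RORα f/f replicate 2 lay just under CD RORα LKO replicate 2, and *Vnn1* was not called without normalization.

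The 12 largest falls included genes of the acute phase (*Saa1* and *Saa2*), major urinary proteins (*Mup13* and *Mup-ps17*) and *G6pc*, described with their groups. *Gadd45g*, a stress-induced gene of growth arrest, was at 27.8, 26, 15.5 and 36.2 FPKM on CD and at 3.04, 4.25, 3.79 and 3.42 on HFD (chr13:51846678-51848468). The CD mean was 7.27 times the HFD mean, and the log2 fold change was −2.48 (SE 0.21, adjusted p 0.00061). *Fabp5*, the epidermal fatty acid-binding protein, was at 13.7, 32.4, 15.6 and 32.3 FPKM on CD and at 3.88, 2.32, 3.73 and 2.98 on HFD. It varied more among the CD libraries than on HFD, and fell by 2.42 on the log2 scale (adjusted p 0.0015).

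*Ces2c*, a carboxylesterase, was at 29, 29.7, 22.1 and 35.7 FPKM on CD and at 4.98, 4.52, 6.89 and 6.78 on HFD, a fall of 2.11 on the log2 scale (adjusted p 0.00025). *Selenbp2*, a selenium-binding protein, was at 438, 389, 249 and 460 FPKM on CD and at 125, 67.7, 44.2 and 75.7 on HFD, and fell by 2.24 (adjusted p 0.0013). *Sik1*, a kinase induced by cyclic AMP, was at 9.6, 6.24, 10.2 and 12.3 FPKM on CD and at 2.19, 1.7, 1.22 and 1.81 on HFD, and fell by 1.92 (adjusted p 0.00071). None of these 3 genes had overlapping diets in either genotype.

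**Figure D2:**
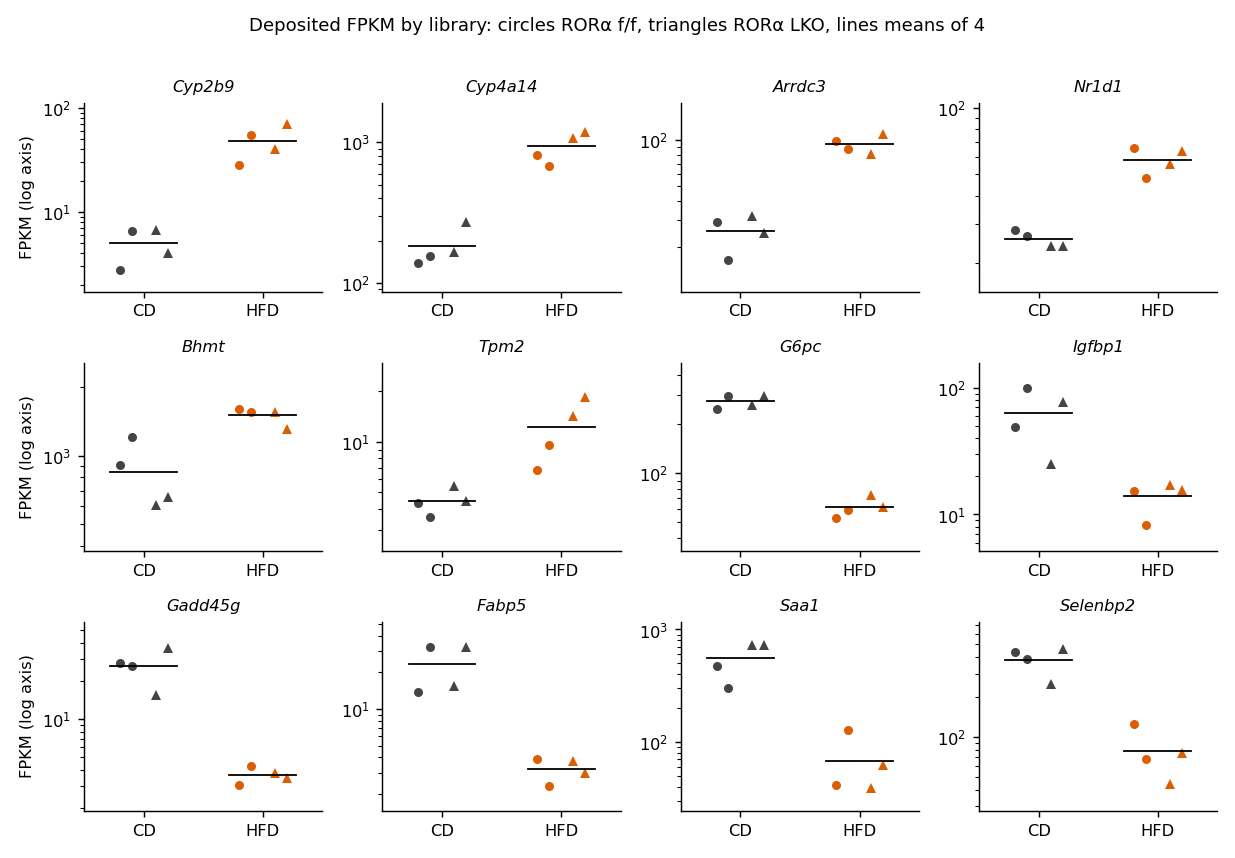
Deposited FPKM (log axis) in each of the 8 libraries for 12 genes, with CD in grey and HFD in orange. Circles are RORα f/f libraries, triangles RORα LKO libraries and lines the means of 4. In each panel the 4 HFD libraries lie wholly above or wholly below the 4 CD libraries, as for *Cyp4a14* (139 to 272 against 685 to 1194) and *G6pc* (246 to 298 against 53.1 to 73.8).

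Most of the cholesterol pathway fell. Of 25 genes of cholesterol synthesis and uptake tested, 18 were lower on HFD and none was higher, and these 18 were called under each of 3 scalings (quantile normalization, median centring and none). The median log2 fold change of the list was −0.68, against 0.01 over all genes tested. *Fdps*, farnesyl diphosphate synthase, was at 79.4, 78.4, 83.1 and 101 FPKM on CD and at 21.7, 22.1, 32.7 and 14.2 on HFD (chr3:89093588-89101959). The CD mean was 3.77 times the HFD mean, and *Fdps* fell by 1.86 on the log2 scale (SE 0.21, adjusted p 0.0013).

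Genes called lower lay at early and late steps. *Idi1*, which isomerizes the isoprene unit, fell by 1.65 and *Sqle*, which epoxidizes squalene, by 1.58. The later sterol steps *Cyp51* (−1.61), *Nsdhl* (−1.63) and *Dhcr7* (−1.22) were also called. *Sqle* was at 11.9, 12.3, 11.7 and 11.8 FPKM on CD and at 3.02, 2.89, 5.84 and 2.02 on HFD. The CD libraries were almost equal, and among the HFD libraries RORα LKO replicate 1 was highest, as it was for *Fdps*, *Idi1*, *Nsdhl*, *Cyp51* and *Dhcr7*. *Insig1*, which holds SREBP in the endoplasmic reticulum, fell by 0.56.

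Of the 7 genes of the list that were not called, *Srebf2*, which encodes SREBP2, had a log2 fold change of 0.05 (adjusted p 0.77). *Hmgcs1*, an early step of the pathway, was at 45.1, 36.3, 44.9 and 46.3 FPKM on CD and at 36.1, 33.3, 97.4 and 53.7 on HFD. Its RORα f/f libraries were lower and its RORα LKO libraries higher on HFD. *Msmo1* (−0.68, adjusted p 0.058) and *Fdft1* (−0.04) also missed the call.

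The promoters of 2 genes of the list called lower are shown, chosen among those that hold the letters marked. Each runs from 250 bases before to 50 after the RefSeq transcription start (GRCm38.p6), in the direction of transcription, with every match to CCAAT on either strand (ATTGG on the other) in capitals. *Idi1* is at chr13:8885356-8885655 on the plus strand and *Cyp51* at chr5:4104648-4104947 on the minus strand.
Idi1: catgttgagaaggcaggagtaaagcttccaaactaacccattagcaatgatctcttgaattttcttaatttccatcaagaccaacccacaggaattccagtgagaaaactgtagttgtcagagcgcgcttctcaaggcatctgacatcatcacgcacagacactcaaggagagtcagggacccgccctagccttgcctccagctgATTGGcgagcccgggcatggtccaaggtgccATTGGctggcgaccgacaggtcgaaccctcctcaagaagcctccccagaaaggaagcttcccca
Cyp51: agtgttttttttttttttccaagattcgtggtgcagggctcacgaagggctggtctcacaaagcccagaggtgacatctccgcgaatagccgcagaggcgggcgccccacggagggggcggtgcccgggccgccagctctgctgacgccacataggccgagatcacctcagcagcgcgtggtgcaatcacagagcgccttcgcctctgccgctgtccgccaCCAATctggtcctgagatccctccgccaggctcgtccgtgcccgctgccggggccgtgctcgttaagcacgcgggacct
Of the 9839 genes tested, 7683 had an entry among these RefSeq promoters. CCAAT was found in 16 of 17 promoters of the cholesterol list (94.1%), in *Cyp51* once and in *Idi1* 2 times, and in 43.2% of the promoters of all genes tested. The promoter of the list without CCAAT was that of *Acat2*, which was called lower. CCAAT was also in 18 of 22 promoters of the unfolded protein list (81.8%) and 13 of 17 of de novo lipogenesis (76.5%). In the other lists searched the shares ran from 42.9 to 58.8%. It stood in 51.3% of the promoters of genes called lower and 42.9% of those called higher. The sterol element letters TCACNCCAC were in 1 promoter of the list, that of *Hmgcs1*, and in 1.52% of all promoters. A match is a stretch of letters and not evidence of binding.

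Several genes of fatty acid synthesis fell too. Of 20 genes of de novo lipogenesis tested, 8 were lower and 1 was higher under each of the 3 scalings, with a list median of −0.49. *Fasn*, fatty acid synthase, was at 45.2, 45.8, 67.7 and 54.6 FPKM on CD and at 19.5, 24.5, 21.8 and 14.1 on HFD (chr11:120805846-120824547). The diets did not overlap, and *Fasn* fell by 1.34 on the log2 scale (SE 0.18, adjusted p 0.0026). *Elovl6*, which elongates palmitate, was at 10.9, 20.1, 13.9 and 18.5 FPKM on CD and at 3.82, 4.73, 4.82 and 2.71 on HFD, and fell by 1.70 (adjusted p 0.0018).

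Genes that feed carbon into the pathway were among them. ATP citrate lyase, *Acly*, was at 38.8, 47.9, 43.3 and 41 FPKM on CD and at 18.5, 19.2, 16.2 and 14.4 on HFD, a log2 fold change of −1.25 (SE 0.09, adjusted p 0.00029). Both acetyl-CoA carboxylase genes, *Acaca* (−0.89) and *Acacb* (−1.24), the acetyl-CoA synthetase *Acss2* (−0.78), the citrate carrier *Slc25a1* (−0.40) and *Tkfc* (−0.64), which phosphorylates glyceraldehyde from fructose, were called lower.

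Stearoyl-CoA desaturase and the lipogenic regulators did not pass the call. *Scd1* was at 696, 1437, 1676 and 1516 FPKM on CD and at 234, 762, 1562 and 559 on HFD, with a wide spread on either diet (log2 fold change −0.74, adjusted p 0.32). *Srebf1*, the SREBP1 gene, was at 39.3, 31.9, 59.6 and 54.7 FPKM on CD and at 40.4, 49, 34.3 and 30.9 on HFD. It lay higher on HFD in RORα f/f and lower in RORα LKO, a difference with an unadjusted p of 0.00033 that did not pass adjustment (0.27). *Mlxipl*, which encodes the carbohydrate sensor ChREBP, had a log2 fold change of −0.05.

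**Figure D3:**
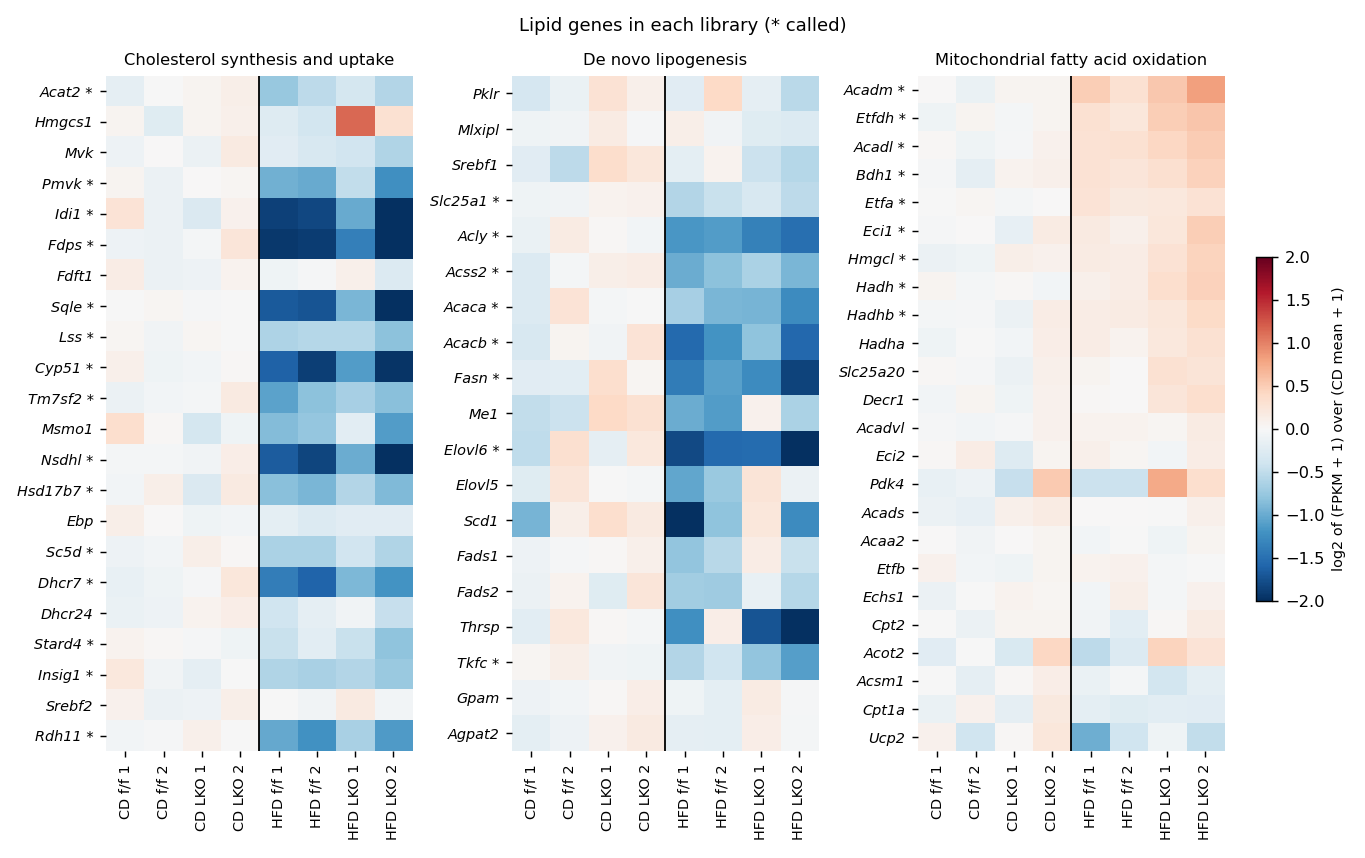
Heat map of genes of 3 lists by library, as the log2 of (FPKM + 1) over (CD mean + 1), blue for lower and red for higher, with the CD libraries left and the HFD libraries right of the line in each panel. Stars mark called genes: 15 of the 22 drawn in cholesterol synthesis and uptake and 8 of the 19 in de novo lipogenesis, all lower, and 9 of the 24 in mitochondrial fatty acid oxidation, all higher.

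Mitochondrial fatty acid oxidation rose in part. Of 25 genes tested, 10 were higher and none was lower, and 8 of the 10 were called under each of the 3 scalings. The median of the list was 0.23, or 0.15 without normalization. *Acadm*, medium-chain acyl-CoA dehydrogenase, was at 168, 153, 173 and 174 FPKM on CD and at 235, 206, 242 and 295 on HFD (chr3:153922357-153944632). The lowest HFD library stood above the highest CD library, and *Acadm* rose by 0.64 (SE 0.08, adjusted p 0.002).

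The long-chain dehydrogenase *Acadl* rose by 0.43, *Etfdh*, which passes its electrons to ubiquinone, by 0.48, and the ketone body enzyme *Bdh1* by 0.39. *Cpt1a*, the gate of fatty acid entry into mitochondria, was at 151, 176, 147 and 190 FPKM on CD and at 145, 140, 143 and 141 on HFD. It did not pass the test (log2 fold change −0.14, adjusted p 0.31), nor did *Pdk4* (0.12), and both are PPARα targets.

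Of 24 genes of peroxisomal and microsomal oxidation, 4 rose and 1 fell. *Cyp4a14* and *Vnn1* rose as given above, as did the peroxisomal bile acid and branched-chain oxidase *Acox2* (0.54). The close relative *Cyp4a10* was at 289, 341, 257 and 524 FPKM on CD and at 453, 521, 843 and 1014 on HFD (log2 fold change 1.13, adjusted p 0.012). It was not called, since CD RORα LKO replicate 2 lay above both RORα f/f HFD libraries. *Ppara* itself was at −0.17.

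Among 16 genes of fatty acid uptake and binding, 4 were higher and 3 lower, with 2 and 3 called under every scaling, and the median of the list was 0.17 with and −0.07 without normalization. Without 1 library 1 to 3 were called higher (1 without HFD RORα LKO replicate 1, 2 without CD RORα f/f replicate 1 or HFD RORα LKO replicate 2), and 5 were called lower without HFD RORα LKO replicate 1. *Fabp2*, the intestinal fatty acid-binding protein, was at 42.3, 38.1, 54.3 and 55.3 FPKM on CD and at 61, 76.5, 100 and 91.5 on HFD, and rose by 0.83 (adjusted p 0.00084). *Acsl4*, which activates arachidonate, was at 16.4, 19.3, 13 and 13.8 FPKM on CD and at 7.57, 8.94, 8.49 and 7.05 on HFD, and fell by 0.85 (adjusted p 0.0017).

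The fatty acid transporter *Cd36* was at 15.3, 19.2, 28.9 and 19.5 FPKM on CD and at 17, 29.3, 63.7 and 60.1 on HFD. HFD RORα f/f replicate 1 lay inside the CD range, so that it was not called in spite of an adjusted p of 0.043 and a log2 fold change of 0.89. Without that library it was called, at 1.15.

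Lipid droplet and triglyceride genes moved little. Of 15 droplet genes 1 was called (6.67%, near the 5.5% called higher of all genes tested). It was *Hsd17b13* at 0.29, and it was not called without normalization (0.13) or with median centring (0.16). *Plin2*, the main droplet coat protein of hepatocytes, had a log2 fold change of −0.52 with an adjusted p of 0.023 and overlapping groups, and was called lower without CD RORα f/f replicate 1 (−0.58). *Cidec* was at −0.14 and *Pparg* at 0.25 (adjusted p 0.076). *Plin4* was at 3.65, 3.97, 2.59 and 3.77 FPKM on CD and at 3.57, 5.79, 12.1 and 14.2 on HFD, with both RORα LKO libraries above every other library and no call (adjusted p 0.053). Of 11 triglyceride synthesis genes 3 were called higher and 1 lower, and *Agpat3* rose under every scaling (0.27, adjusted p 0.0091). Of the 3 called higher 1 was left without CD RORα f/f replicate 1 or HFD RORα f/f replicate 2, *Dgat2* and *Apob* each lost the call in 5 of 8 cases, and *Gpat4*, called lower, lost it in 4.

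Among genes of glucose release the clearest fall was at the last step. *G6pc*, the glucose-6-phosphatase catalytic subunit that frees glucose from the liver, was at 246, 298, 262 and 297 FPKM on CD and at 53.1, 59.7, 73.8 and 61.9 on HFD (chr11:101367561-101377903). The mean fell from 276 ± 25.8 to 62.1 ± 8.65 FPKM (SD, n = 4), a log2 fold change of −2.04 (SE 0.10, adjusted p 3e-05).

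*Pck1*, which makes phosphoenolpyruvate for gluconeogenesis, was at 1173, 1178, 746 and 1058 FPKM on CD and at 693, 491, 478 and 599 on HFD. Its deposited FPKM did not overlap, but its normalized values did, so that it was not called (−0.68, adjusted p 0.015). It was called without normalization (−0.87), with median centring (−0.84), without HFD RORα f/f replicate 1 (−0.75) and without CD RORα LKO replicate 1 (−0.80). Pyruvate carboxylase, *Pcx*, rose by 0.50 (adjusted p 0.002). Of 22 genes of glucose metabolism 3 rose and 1 fell, and 2 and 1 under every scaling, and 3 were called lower without CD RORα LKO replicate 1 or HFD RORα LKO replicate 1.

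*Igfbp1*, which binds insulin-like growth factors and is repressed by insulin, was at 49, 99, 25.2 and 77.8 FPKM on CD and at 15.2, 8.2, 17 and 15.5 on HFD (chr11:7197782-7202546). The CD libraries spread widely and all lay above the HFD libraries, and *Igfbp1* fell by 1.92 (SE 0.39, adjusted p 0.014). *Trib3*, an inhibitor of AKT, was at 2.01, 1.84, 2.21 and 2.32 FPKM on CD and at 6.42, 3.38, 3.45 and 3.93 on HFD, and rose by 0.76 (adjusted p 0.014). Of 19 genes of insulin signalling and hepatokines 1 rose and 2 fell, or 1 without CD RORα f/f replicate 1, HFD RORα f/f replicate 2 or CD RORα LKO replicate 2. *Irs2* (−0.35, adjusted p 0.29), *Foxo1* (0.00), *Igf1* (−0.07) and *Fgf21* (0.16) did not pass the test.

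The RefSeq promoters of *G6pc* (chr11:101367466-101367765, plus strand) and *Igfbp1* (chr11:7197537-7197836, plus strand) are shown. Both were chosen among called genes that hold the letters marked, and both are textbook targets of FOXO1. The capitals mark TGTTTTG, or CAAAACA on the other strand, the core of the insulin response sequence.
G6pc: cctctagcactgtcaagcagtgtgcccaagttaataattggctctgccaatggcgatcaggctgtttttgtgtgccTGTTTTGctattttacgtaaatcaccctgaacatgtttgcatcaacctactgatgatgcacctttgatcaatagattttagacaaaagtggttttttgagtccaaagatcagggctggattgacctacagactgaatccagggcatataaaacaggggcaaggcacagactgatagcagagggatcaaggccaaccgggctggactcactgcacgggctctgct
Igfbp1: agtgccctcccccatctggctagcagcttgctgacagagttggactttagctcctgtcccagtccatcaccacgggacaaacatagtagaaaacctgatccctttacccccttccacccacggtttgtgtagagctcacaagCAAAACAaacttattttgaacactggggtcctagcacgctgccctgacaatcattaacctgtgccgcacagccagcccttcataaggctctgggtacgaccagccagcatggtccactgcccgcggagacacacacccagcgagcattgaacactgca
These letters stood in 5.43% of the promoters of all genes tested, in 6.25% of those called lower and in 6.95% of those called higher. In the glucose list 2 of 18 promoters held them, *G6pc* and *Gckr*, and in the list of insulin and hepatokine genes 2 of 17, *Igfbp1* and *Irs2*. *Gckr* was called higher (0.28, adjusted p 0.036). It lost that call without CD RORα f/f replicate 1 (0.23), among other single libraries.

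Male-biased growth hormone targets had the lowest median of any list. Of 28 tested, 12 were lower and none higher, under each of the 3 scalings, with a median log2 fold change of −0.99. *Serpina1e*, an alpha-1 antitrypsin paralog, was at 7083, 5184, 5276 and 6070 FPKM on CD and at 2779, 1413, 779 and 751 on HFD. The diets stood apart, and the RORα LKO libraries were lowest on HFD, with a fall of 2.04 on the log2 scale (adjusted p 0.0032). *Cyp4a12a*, an arachidonate hydroxylase of male liver, was at 138, 122, 114 and 173 FPKM on CD and at 47.8, 42.5, 36.5 and 57.2 on HFD, and fell by 1.49 (adjusted p 0.00087). These paralogs share sequence, so that the split of reads within each family is uncertain.

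The major urinary proteins carry pheromones and are among the most abundant liver transcripts of male mice. The FPKM summed over *Mup* genes was 37700, 47100, 43900 and 37900 on CD and 32900, 21400, 18700 and 19600 on HFD. All 4 sums were lower on HFD, and HFD RORα f/f replicate 1 was nearest to the CD range. Of 23 *Mup* genes and pseudogenes tested 8 were lower, none was higher, and the median was −0.95. *Mup13* was at 14.3, 149, 868 and 30.2 FPKM on CD and at 8.45, 4.09, 3.8 and 5.97 on HFD. The 4 CD values ranged from 14.3 to 868, and the log2 fold change of −3.76 (SE 1.03, adjusted p 0.045) lost its call without CD RORα f/f replicate 2 (−3.30), without HFD RORα f/f replicate 1 (−4.14) or 2 (−3.79) and without HFD RORα LKO replicate 1 (−3.45) or 2 (−3.66). Of 22 female-biased genes listed 7 passed the filter and were tested, 4 with a positive and 3 with a negative log2 fold change. *Cyp2b9* was the only one called. The median of the 7 was 0.54, or 0.43 in RORα f/f and 0.25 in RORα LKO.

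Drug-metabolizing P450 genes moved both ways, 6 up and 6 down of 32 tested, with 4 and 6 under every scaling. *Cyp3a11*, the main drug-metabolizing CYP3A of mouse liver, was at 1033, 1045, 1146 and 1234 FPKM on CD and at 214, 298, 522 and 431 on HFD, and fell by 1.52 (SE 0.17, adjusted p 0.0013). *Cyp2b10*, the standard target of the xenobiotic receptor CAR, was at 10.2, 11.4, 6.13 and 5.7 FPKM on CD and at 1.63, 1.86, 3.03 and 1.78 on HFD, and fell by 1.55 (adjusted p 0.0027) while its neighbour *Cyp2b9* rose. *Cyp2e1*, which oxidizes ethanol and fatty acids, was at 4285, 4680, 3875 and 4102 FPKM on CD and at 6332, 6173, 5512 and 6770 on HFD. All HFD libraries were higher, at a log2 fold change of 0.82 (adjusted p 0.0034).

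Several acute phase genes, which hepatocytes induce on inflammatory signals, were lower on HFD. Of 29 acute phase and complement genes tested 9 fell and none rose, under each of the 3 scalings, with a median of −0.23. *Saa1*, serum amyloid A1, was at 473, 300, 725 and 726 FPKM on CD and at 41.2, 127, 38.9 and 62 on HFD (chr7:46740497-46742980). The CD mean was 8.27 times the HFD mean and the log2 fold change −3.02 (SE 0.39, adjusted p 0.0023). Its near-identical neighbour *Saa2* (−3.19) may share its reads.

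*Orm2*, an orosomucoid, fell by 1.73 (adjusted p 0.0082), *C8b*, of the complement membrane attack complex, by 0.99 and *C9* by 0.51. *Hp* (−0.14), *Crp* (−0.05) and *Fgb* (0.11) were acute phase genes that did not pass the test. Hepcidin, *Hamp*, which restrains iron export, was at 2537, 1789, 2627 and 1688 FPKM on CD and at 590, 855, 438 and 539 on HFD (chr7:30942368-30944032). The highest HFD library was well below the lowest CD library, and *Hamp* fell by 1.64 (SE 0.19, adjusted p 0.0014). None of 15 Kupffer cell and macrophage markers and none of 5 lymphocyte and leukocyte markers tested was called over both genotypes, though *C1qc* was called lower without HFD RORα LKO replicate 1. The median of the macrophage list was −0.35 in RORα f/f and 0.13 in RORα LKO, that of the leukocyte list −0.31 and 0.14, and that of the acute phase list −0.01 and −0.40. *Timd4*, a Kupffer cell receptor, fell in RORα f/f (−0.63, adjusted p 0.036) and had a log2 fold change of 0.10 in RORα LKO, and the difference did not pass (adjusted p 0.43). Of the 15 macrophage markers 14 had a negative log2 fold change over both genotypes, and the summed FPKM of the macrophage list was 176 to 240 on CD and 146 to 238 on HFD. The part of these cells in the fall of the acute phase genes was not tested.

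Several protein-folding genes of the endoplasmic reticulum fell. Of 24 genes of the unfolded protein and integrated stress response, 7 were lower and 3 higher, 7 and 2 under every scaling, with a median of −0.25. *Sdf2l1*, a chaperone cofactor, was at 11.8, 14.8, 12 and 15.7 FPKM on CD and at 7.18, 5.3, 3.85 and 6.07 on HFD, and fell by 1.13 (adjusted p 0.0027). The disulfide isomerases *Pdia6* (−0.53) and *Pdia3* (−0.45) and the lectin chaperone *Calr* (−0.45) fell less. *Pdia6* was at 106, 108, 102 and 111 FPKM on CD and at 77.6, 68, 65.2 and 71.2 on HFD, which left a clear gap between tight groups. *Hspa5*, the master chaperone BiP, was at 202, 309, 149 and 200 FPKM on CD and at 194, 173, 147 and 190 on HFD, with overlapping groups (−0.17, adjusted p 0.54).

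The list also holds genes of the integrated stress response, which went both ways. *Atf5*, a transcription factor of that response, was at 84.7, 83.6, 108 and 115 FPKM on CD and at 157, 132, 160 and 124 on HFD, and rose by 0.62 (adjusted p 0.012). *Trib3* rose as given above and *Shmt2*, a mitochondrial enzyme of serine use, by 0.24. *Ppp1r15a*, a phosphatase subunit that ends the response, fell by 0.57 (adjusted p 0.011). Of 15 heat shock chaperones 4 fell and none rose, but with any 1 library left out 1 or 2 were called: *Hspa4l*, *Bag3* and *Ahsa1* lost their calls in 6 or 7 of the 8 cases. *Hsp90aa1*, the inducible HSP90, was at 49.5, 37.6, 48.5 and 44.4 FPKM on CD and at 28.1, 22.4, 26 and 30.7 on HFD, and fell by 0.69 (adjusted p 0.0035).

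The RefSeq promoter of *Pdia6* (chr12:17266339-17266638, plus strand) shows the endoplasmic reticulum stress element in capitals, that is CCAAT and CCACG with 9 bases of any kind between them. It was chosen among called genes that hold the element.
Pdia6: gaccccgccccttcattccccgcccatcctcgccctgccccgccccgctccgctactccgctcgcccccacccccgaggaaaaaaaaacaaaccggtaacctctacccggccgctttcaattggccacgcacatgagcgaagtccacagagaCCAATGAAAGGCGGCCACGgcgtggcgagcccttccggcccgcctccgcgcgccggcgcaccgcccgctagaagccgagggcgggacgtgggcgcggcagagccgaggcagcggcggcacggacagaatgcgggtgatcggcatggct
The search covered both strands, and every match also counts as a match to CCAAT. The element stood in 15 of the promoters of all genes tested (0.195%) and in 7 of 22 of the list. Of those 7, *Pdia6*, *Calr* and *Dnajc3* were called lower, and *Hspa5*, *Hsp90b1*, *Canx* and *Creld2* were not called. Also searched were the E box CACGTG and the cyclic AMP element TGACGTCA. The E box stood in 12.4% of the promoters of all genes tested, 9.64% of those called lower and 12.7% of those called higher. The cyclic AMP element stood in 3.71%, 4.69% and 1.24%.

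Amino acid genes went both ways. Of 37 genes of amino acid catabolism and the urea cycle 6 rose and 7 fell, 3 and 7 under every scaling. *Tat*, tyrosine aminotransferase, was at 876, 1036, 480 and 586 FPKM on CD and at 322, 250, 302 and 284 on HFD, and fell by 1.13 (adjusted p 0.0043). The aspartate aminotransferase *Got1* was at 172, 236, 180 and 200 FPKM on CD and at 75.8, 101, 48 and 52.6 on HFD, and fell by 1.48 (adjusted p 0.0012). Both are aminotransferases whose products can feed gluconeogenesis.

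The sulfur amino acid genes split. *Cdo1*, cysteine dioxygenase, was at 699, 791, 764 and 613 FPKM on CD and at 1198, 1167, 1153 and 1167 on HFD, and rose by 0.87 (adjusted p 0.00061), with HFD libraries close together. *Csad*, which takes the product of *Cdo1* on to hypotaurine, fell by 1.36, and *Bhmt* rose as above. Of 31 glutathione and NRF2 genes 6 rose and 5 fell, 2 and 5 under every scaling, and 3 rose without HFD RORα LKO replicate 2. *Gstm3* was at 33.9, 36.1, 25.8 and 27 FPKM on CD and at 7.06, 9.79, 8.69 and 5.43 on HFD. It fell by 1.85 (SE 0.14, adjusted p 0.00035). *Gstp1* fell by 0.91, and both belong to multigene families that can share reads.

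Of 18 bile acid genes 3 rose and none fell, and those called under every scaling were both uptake carriers. Without HFD RORα f/f replicate 1 there were 5 called higher. *Slc10a1*, which encodes the sodium-dependent bile acid carrier NTCP, was at 504, 501, 435 and 458 FPKM on CD and at 777, 820, 753 and 639 on HFD, and rose by 0.83 (adjusted p 0.00071). *Slco1b2*, an organic anion carrier of the same membrane, was at 390, 419, 423 and 385 FPKM on CD and at 598, 574, 619 and 636 on HFD, and rose by 0.73 (adjusted p 0.00084). The synthesis genes *Cyp7a1* (0.06), *Cyp27a1* (0.00) and *Cyp8b1* (−0.48, adjusted p 0.16) did not pass the test. The synthesis gene *Cyp7b1* was at 208, 193, 85.3 and 162 FPKM on CD and at 96.8, 56.9, 37.6 and 47.4 on HFD. Its log2 fold change was −1.37 (adjusted p 0.0043). It was not called, since CD RORα LKO replicate 1 lay below HFD RORα f/f replicate 1.

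Of 20 genes of cholesterol efflux and lipoproteins 5 rose, 2 of them under every scaling, and 3 rose without CD RORα LKO replicate 2 or either HFD RORα LKO library. *Scarb1*, the HDL receptor, rose by 0.38 (adjusted p 0.0022). Of 24 retinoid and iron genes 3 rose, or 1 without CD RORα LKO replicate 2, and 5 fell. *Rdh9*, a retinol and steroid dehydrogenase, was at 24.9, 27.3, 19.6 and 22.3 FPKM on CD and at 41.9, 52.3, 42.5 and 45.8 on HFD, a rise of 0.97 (adjusted p 0.00067). *Rdh11*, which also sits on the cholesterol list, fell by 0.97 (adjusted p 0.0013).

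Clock genes other than *Nr1d1* moved less. Of 19 tested 2 rose and 2 fell, 2 and 1 under every scaling, and 1 fell when any library but CD RORα f/f replicate 2 or HFD RORα f/f replicate 2 was left out. *Noct*, a rhythmic phosphatase gene named for its night peak, was at 31.8, 33.5, 19.1 and 19.7 FPKM on CD and at 13.8, 12.6, 11 and 10.2 on HFD, and fell by 0.99 (adjusted p 0.00071). *Hlf*, a clock output factor, rose by 0.51. *Dbp* (0.33, adjusted p 0.17), *Per2* (−0.27, adjusted p 0.077), *Clock* (0.14) and *Cry1* (−0.16) did not pass. With no collection hour in the sources used here, a diet difference in level and one in phase cannot be told apart for these genes.

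Of 15 genes of growth arrest and growth signalling 5 fell and none rose. *Lifr*, a cytokine receptor, was at 66.2, 74.6, 54.9 and 69.2 FPKM on CD and at 29.6, 31.4, 21.3 and 30.5 on HFD, and fell by 1.16 (adjusted p 0.0007). *Egfr* was at 98.3, 104, 108 and 110 FPKM on CD and at 61.4, 67.4, 33.3 and 37.6 on HFD, and fell by 1.08 (adjusted p 0.0043). Its fall was 0.62 in RORα f/f and 1.54 in RORα LKO on the log2 scale. Of 30 nuclear receptors and lipid regulators, *Rxra*, the shared partner of many of them, rose by 0.27 and *Insig1* fell, and no other member was called with all libraries. These calls were 3.33% of the list in each direction, under the 5.5% called higher and 4.92% called lower of all genes tested. Without CD RORα f/f replicate 1 or HFD RORα LKO replicate 1 there were 3 called higher, and without CD RORα LKO replicate 1 there were 3 called lower.

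Markers of the other cells of the liver and measures of RNA moved as follows. Of 10 stellate cell and matrix genes tested 4 were higher under every scaling, *Ecm1* (1.01), *Dcn* (0.78), *Reln* (0.62) and *Bgn* (0.53). *Col4a1*, a basement membrane collagen, was called lower (−0.29, adjusted p 0.028), though not with median centring nor in 6 of 8 cases with 1 library left out. The summed FPKM of all 18 listed was 87.6 to 146 on CD and 171 to 218 on HFD. That sum includes the called genes, such as *Ecm1* (mean 35.9 FPKM on CD and 67 on HFD) and *Dcn* (37.9 and 62.6), and is not a separate measure. *Dcn*, decorin, was at 43.3, 45.3, 36.6 and 26.4 FPKM on CD and at 72.2, 52.5, 71.3 and 54.6 on HFD. *Dcn* and *Reln* lost their calls without HFD RORα f/f replicate 1 (0.74 and 0.59, both at an adjusted p of 0.051). *Col1a1*, *Acta2* and *Timp1*, which mark activated stellate cells, were at or under 1.51 FPKM in every library.

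Of 12 endothelial markers 1 was called (8.33%, against 5.5% called higher of all genes tested). All 12 had a positive log2 fold change, with a list median of 0.18. *Lyve1*, which marks sinusoidal endothelium, rose by 0.76, from 1.58, 2.65, 2.13 and 1.68 FPKM on CD to 4.43, 3.5, 4.52 and 3.51 on HFD (adjusted p 0.0062). None of 3 cholangiocyte markers was called. Of 12 pancreas acinar markers 1 was tested and not called, and 8 were at 0 in all 8 libraries. Of 6 adipocyte markers tested 5 had a negative log2 fold change, none of them called, and the list median was −0.20. The summed FPKM of the 12 listed was 2600 to 2780 on CD and 1340 to 2380 on HFD. *Fabp4* (mean 7.15 FPKM on CD and 9.28 on HFD) and *Plin1* (at most 0.0537 FPKM) made up little of that sum. It therefore cannot be read as a measure of adipocytes. *Fabp4* was called higher (0.37), without a call when CD RORα f/f replicate 1 (0.33) or HFD RORα LKO replicate 1 (0.31) was left out. Of 5 erythroid markers *Alas2* fell by 0.56, and the summed FPKM of that list was 85.9 to 502 on CD and 65.8 to 228 on HFD. The summed FPKM of 42 ribosomal protein genes was 7850 to 8350 on CD and 6580 to 7460 on HFD. Of them 3 fell (7.14%, against 4.92% of all genes tested), or 10 without normalization and 6 without CD RORα f/f replicate 1. Of 13 mitochondrial transcripts *mt-Nd5* was called higher (0.42), and lost its call without HFD RORα f/f replicate 2, without CD RORα LKO replicate 1 or 2 and without HFD RORα LKO replicate 1 or 2 (0.36 to 0.41). The part of cell mixture and of RNA quality in the diet results was not tested.

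**Figure D4:**
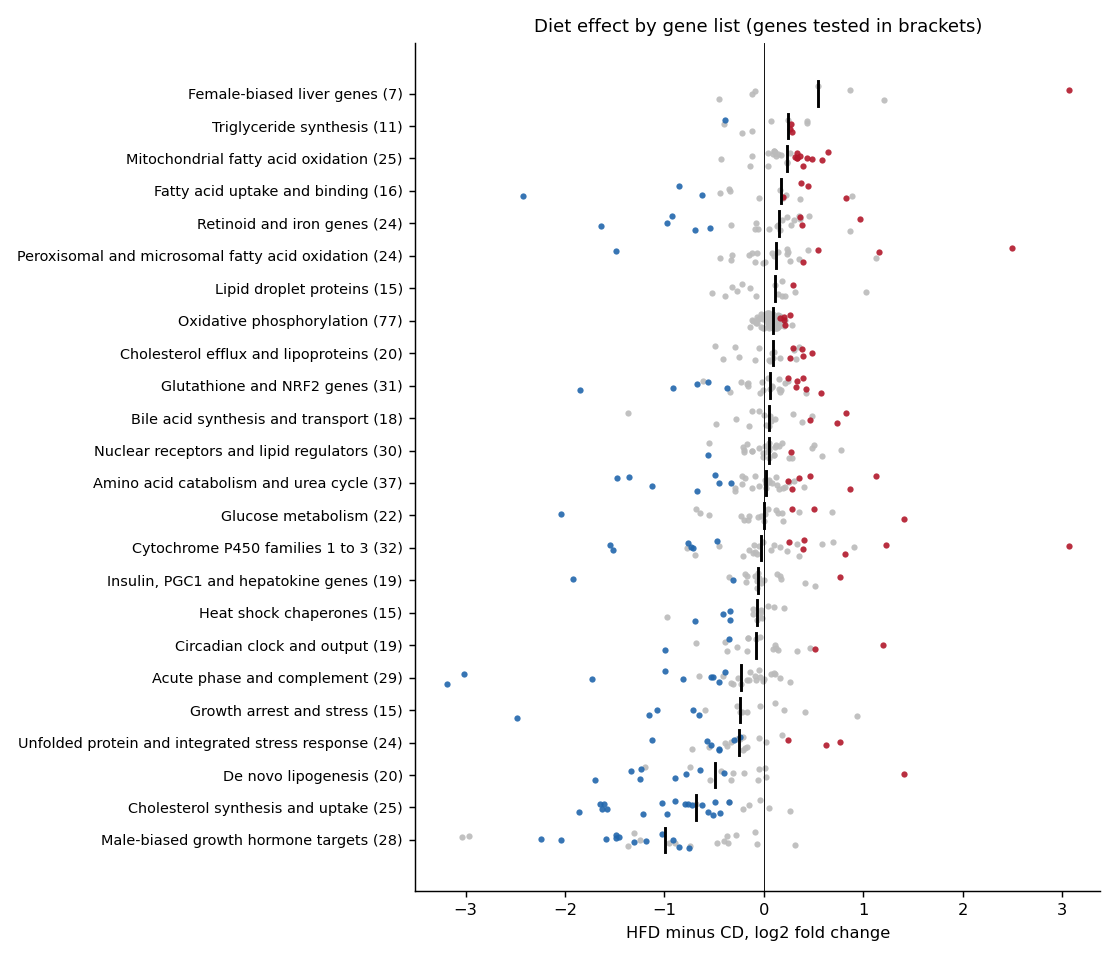
Log2 fold change of HFD over CD for the genes of 24 lists, with red for called higher, blue for called lower, grey for not called and a bar at the list median. The medians run from −0.99 for male-biased growth hormone targets and −0.68 for cholesterol synthesis and uptake to 0.54 for the female-biased genes. Of 22 female-biased genes listed 7 were tested, 4 with a positive and 3 with a negative log2 fold change.

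How far a rise could be read depended on the level of the gene. Quantile normalization added a median of 0.03 to the log2 fold change of the 8595 genes under 50 FPKM, 0.07 to the 1111 at 50 to 500, 0.19 to the 115 at 500 to 5000, with a maximum of 0.52, and −0.06 to the 18 above 5000. Without normalization 331 genes were called higher and 650 lower, so that 33.7% of the calls were higher rather than 52.8%, and with median centring 475 and 490. Called under all 3 scalings were 780 genes, 331 higher and 449 lower. Of the 34 genes above 500 FPKM called higher, 9 were called under all 3, against 13 of the 13 called lower.

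The affected genes encode abundant secreted and housekeeping proteins. *Ttr*, transthyretin, was called at 0.38 with normalization and stood at −0.01 without it, and *Selenop* (0.45 and −0.04), *Rbp4* (0.38 and −0.06), *Gc* (0.31 and −0.19), *Mgst1* (0.32 and −0.20) and *Eef1a1* (0.27 and −0.14) also turned sign. No direction is given for these 6. Of 77 genes of oxidative phosphorylation, 5 were called higher with normalization (6.49%, near the 5.5% of all genes tested) and none under all 3 scalings. The list median was 0.09, or 0.01 without normalization. Of 13 hepatocyte markers 4 were called higher and 1 lower, and under all 3 scalings *Cyp2e1* alone was higher and *Tat* alone lower.

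**Figure D5:**
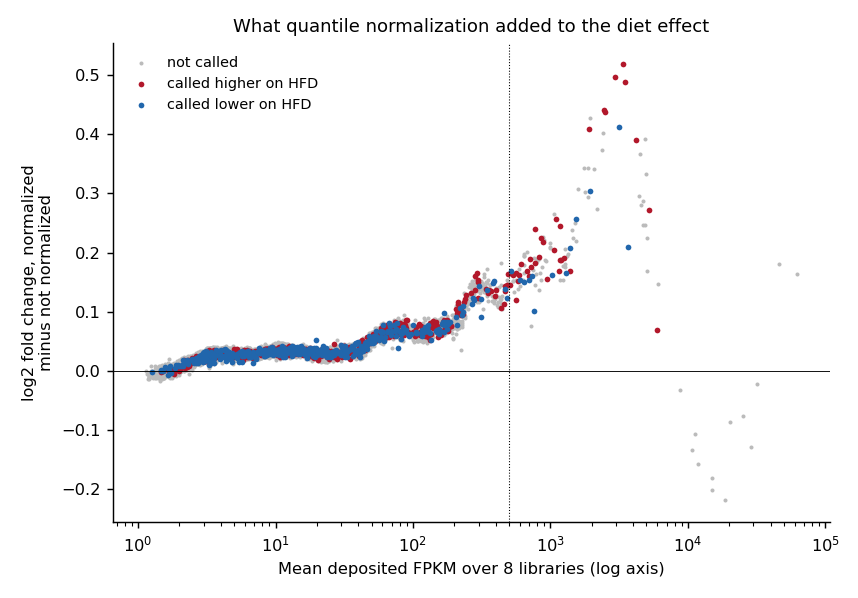
The log2 fold change of HFD over CD with quantile normalization minus that without it (y axis) against the mean deposited FPKM of a gene (x axis, log scale), for 9839 genes, red for called higher, blue for called lower, and a dotted line at 500 FPKM. The difference stays near 0.03 below 50 FPKM and reaches 0.52 between 500 and 5000 FPKM.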

How the data were processed

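Poly(A) RNA of pooled mouse livers was sequenced as paired ends. The authors deposited 1 table of FPKM per gene and library, made with cutadapt (1.0), TopHat2 (2.0.7), GRCm38 and Cufflinks (version not given in the sources used here). Depth is unknown from FPKM, so no counting interval is given. Symbols and coordinates came from GENCODE annotation of GRCm38, promoters from RefSeq (GRCm38.p6).

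The study's methods quantile normalized genes above 1 FPKM in at least 1 library, an alternative here. Genes above 1 FPKM in all 8 libraries were tested on log2(FPKM + 1), quantile normalized, with limma (3.58.1, R 4.3.3), a mean-variance trend, and diet and genotype as terms. The diet in each genotype and the genotype by diet difference came from a fit of the 4 groups. Composition was compared by exact permutation. Scripts were tested on simulated data. The members and the 35 gene lists were chosen with earlier results of these data known. Named were the 12 genes with the largest change in each direction among called genes with a symbol that is not a clone name, up to 4 called members a list, and a fixed set of lipid genes whatever their values; other list members, *Angptl8* and genes that turned sign were chosen after their values were seen. Some genes are counted in the lists but not reported here. Alternatives varied the normalization, pseudocount, filter, trend, covariate, replicate block and libraries. List counts with a library left out were added after the data were seen. Same-numbered libraries did not deviate together (correlations between groups of −0.0555 to 0.0264), so the numbers do not pair them.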

Additional observations from a re-analysis of the deposited data

Results flagged for a closer look

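For each of 120 named genes the 4 libraries of a diet were searched for 1 that stood apart from the other 3 by Dixon's 95% criterion. Of 240 such sets 11 met it, where chance alone gives about 1 in 20.

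On CD, *Spry4* was at 1.01 FPKM in RORα f/f replicate 2 against 2.08 to 2.27 in the others, and *Lcat* in the same library was at 322 against 344 to 348. *Apob* was at 851 FPKM in RORα f/f replicate 1 against 789 to 799. *Mup13* was at 868 FPKM in RORα LKO replicate 1 against 14.3 to 149, and *Nsdhl* was at 37.2 in RORα LKO replicate 2 against 32.1 to 32.9.

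On HFD, *Cyp2a22* was at 4.21 FPKM in RORα f/f replicate 1 against 7.41 to 8.01 elsewhere, and *Gsta2* at 10.6 in RORα f/f replicate 2 against 7.07 to 7.48. RORα LKO replicate 1 stood apart for *Cyp2b10* (3.03 against 1.63 to 1.86), *Fabp4* (10.4 against 8.88 to 8.94) and *Rps20* (29.8 against 36.8 to 37.7), and RORα LKO replicate 2 for *Rarres1* (31.4 against 21.1 to 22.6). Of these genes, *Mup13*, *Apob*, *Fabp4* and *Rps20* lost their calls without at least 1 library.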

How the results depend on the processing

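The 541 higher and 484 lower calls became 331 higher without normalization, 309 and 319 with genes above 0 FPKM in any library, and 180 and 241 with a minimum log2 fold change. Leaving out 1 library gave 307 to 457 higher and 316 to 447 lower calls, with the lowest of both without HFD RORα LKO replicate 2. The 323 calls in RORα f/f became 155 with genes above 1 FPKM in at least 1 library and 148 in the 4 libraries alone, and the 570 in RORα LKO became 351 and 277. The count of 0 genes with a genotype by diet difference became 4 with genes above 1 FPKM in at least 1 library (*Snord118*, *Snord15b*, *Gm22988* and ENSMUSG00000093165, each listed at 0 in several libraries). With the replicate block 445 genes were higher and 421 lower, and 244 and 438 passed in the genotypes. *Ttr* was at −0.01 without normalization. Read in the deposited FPKM, an alternative chosen after seeing the data, 447 and 509 genes were called. Other settings kept both counts within 1.5 times. The causes were not tested. Depth cannot be read from FPKM, and with 2 pools a group small changes may go uncalled.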

Other observations

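Genes above 1 FPKM in every library of one diet and under it in every library of the other were not among the 9839 tested. They are given as values, without a test. There were 18 such genes on CD and 10 on HFD, many of them within a fraction of 1 FPKM of the filter.

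The clearest was *Moxd1*, a monooxygenase-like gene, at 9.084 and 21.085 FPKM in the CD RORα f/f libraries and 1.23 and 5.55 in the CD RORα LKO libraries, with at most 0.023 FPKM on HFD. *Ugt2b38*, a glucuronosyltransferase, was at 8.685, 19.253, 4.422 and 12.939 FPKM on CD and at 0.697, 0.352, 0.21 and 0.583 on HFD, and *Cyp2c55* was at 1.754 to 3.42 on CD and 0.157 to 0.594 on HFD. Both belong to gene families that can share reads.

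In the other direction *Vldlr*, the very low density lipoprotein receptor, was at 0.377, 0.2, 0.505 and 0.426 FPKM on CD and at 1.462, 1.685, 2.211 and 2.824 on HFD. *Cyp2b13*, a neighbour of *Cyp2b9* that is also female-biased, was at 0, 0, 0.283 and 0.084 FPKM on CD and at 1.065, 3.696, 1.217 and 3.812 on HFD. *Pde1a*, a phosphodiesterase of cyclic nucleotides, was at 0.271 to 0.653 FPKM on CD and 1.286 to 1.725 on HFD.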
